A study of Mus musculus with 15 samples.

Results

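The colon response to chemical injury was compared between mice lacking *Tert*, the gene of the reverse transcriptase subunit of telomerase, and wild-type mice. The comparison uses the 6 DSS-treated colon libraries of those genotypes, 3 per genotype, of 15 libraries in all. Wild type (WT) is labelled TERT+/+ and the knockout (KO) TERT-/-. Both groups were 8 to 12 weeks old, drank 3% dextran sulfate sodium (DSS) for 4 days and plain water for 4 more, and gave colon on day 8. The untreated colons of the same genotypes, 2 libraries each, serve as the background, and the 5 remaining libraries carry the TERT-VAA allele, described as enzymatically inactive. The labels do not say which part of the gene was deleted, which strain was used or whether a sample was 1 animal, so a *P* value here reflects the spread among libraries, which may be technical. All 32544 genes of the count table were considered, and 17477 of them passed a filter on low counts and were tested.

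DSS is a polymer that injures the colonic epithelium. In the days after its withdrawal, neutrophils and monocytes enter the mucosa, cytokines and matrix-degrading enzymes are made, and crypt epithelium regrows. Telomerase extends chromosome ends, and its reverse transcriptase is normally a low-abundance transcript. A bulk library averages all cells of the piece of colon, so a lower level of a marker cannot be told apart between fewer cells of a type and less RNA per cell. This holds for every cell type marker below.

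*Tert* was read first in each library. It occupies chr13:73626911-73649843 (mm10, plus strand). The KO DSS libraries held 0, 0 and 1 *Tert* counts and the WT DSS libraries 26, 36 and 23. The groups did not overlap, and the WT total was 79.7 times the KO total after scaling for depth (95% exact interval 13.9 to 3186, counting error only). *Tert* was called lower by edgeR, with an adjusted *P* of 0.0019.

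Depth was alike in both groups, from 13.91 to 15.25 M counts in KO and from 13.07 to 16.42 M in WT. The Y-linked gene *Ddx3y* had 5 to 17 counts in each of the 6. It had 914 counts in untreated WT replicate 2 and 868 in untreated KO replicate 2, against 20 and 9 in replicate 1, so the untreated groups held 1 male library each and the DSS groups none. On principal component 1, with 47.3% of their variance, the WT libraries lay from -51.4 to -18.0 and the KO libraries from 28.4 to 41.3, so the genotypes were apart without exception. WT replicate 3 was the WT library closest to KO. Levels are given as CPM, counts scaled to library size with edgeR's trimmed mean factor, and changes as log2 fold changes of KO against WT with the standard error (SE) of the fit. A gene is called at an adjusted *P* under 0.05, and rose or fell is written of called genes alone.

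Under DSS 991 genes differed between KO and WT, 5.67% of those tested, with 561 higher in KO (3.21%) and 430 lower (2.46%). Across all genes tested the median log2 fold change was -0.01. KO libraries lay wholly above WT libraries for 2860 genes (16.4%) and wholly below for 3404 (19.5%). The lowest called genes included neutrophil products such as *Retnlg* and *S100a8*, and the highest included the epithelial products *Mptx1* and *Fabp6*. In untreated colon 0 genes were called between the same genotypes by edgeR, with 352 at an unadjusted *P* under 0.05, 9 called by DESeq2 and 1 by limma. *Tert* itself was among the genes edgeR did not call, with 1 and 1 counts in untreated KO and 37 and 40 in untreated WT. With 2 libraries per genotype a known loss was thus missed, so 0 calls do not show that the untreated colons were alike. For the difference between the DSS and untreated comparisons 0 genes were called by edgeR, with 1736 at an unadjusted *P* under 0.05, 138 called by DESeq2 and 9 by limma. In that fit of all 15 libraries no single gene was thus shown to differ between treated and untreated colon in its genotype difference, whereas edgeR called 31 genes when the 4 WT and KO groups alone were fitted, 18 without VAA DSS replicate 3 and 5 without the expression filter.

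**Figure D1:**
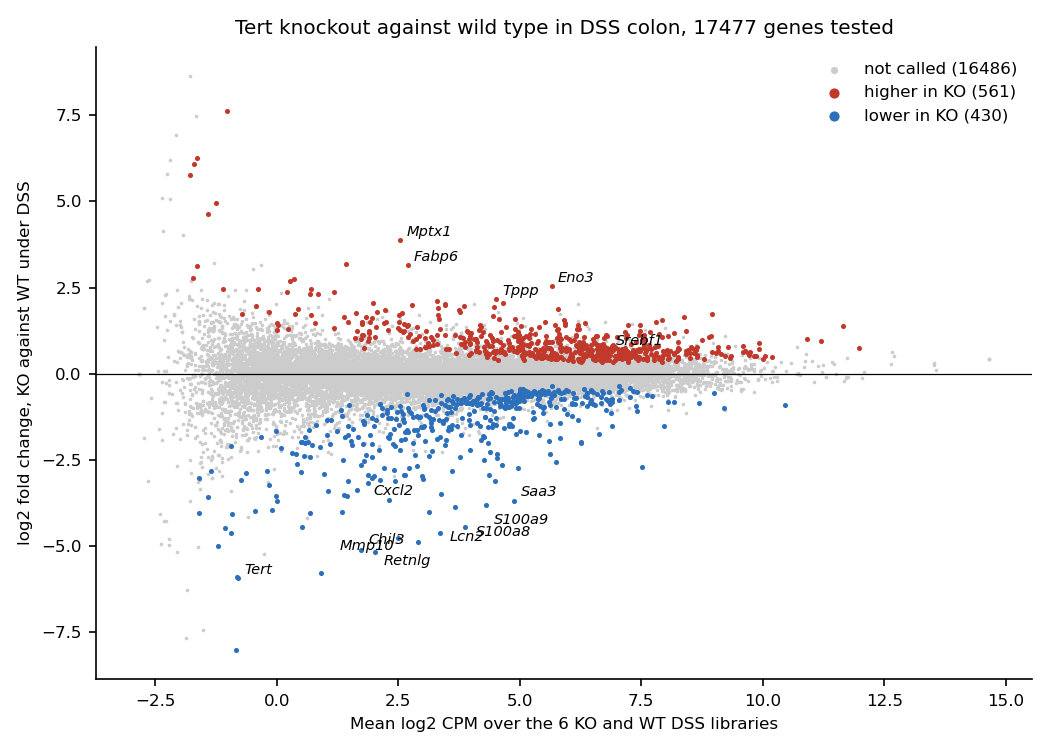
Log2 fold change of KO against WT under DSS (y axis) against mean log2 CPM over the 6 libraries (x axis), 1 point per gene tested. Red points are the 561 genes called higher and blue points the 430 called lower; above a mean of 2 log2 CPM, neutrophil genes such as *Retnlg* and *S100a8* are among the lowest points and *Mptx1* and *Fabp6* are the highest called.

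The number of calls depended on which libraries entered the fit. Without VAA DSS replicate 3, a library outside the comparison that stands apart from its group, 2704 genes were called, 1193 higher and 1511 lower. Without WT DSS replicate 2 the count was 121, of which 42 were higher, and leaving out any other of the 6 libraries gave 236 to 1027. Without the 2 untreated male libraries 531 genes were called, 290 higher and 241 lower. On the authors' deposited log2 values, which carry no scaling factor, limma called 375 genes higher and 856 lower, 30.5% higher against 56.6% in the edgeR fit. The median over all genes was -0.12 on that scale, and changes near this size are to be read against it.

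Gene lists were used to describe the 991 genes by role, each with the count of its tested members that rose or fell. The chart of list shares orders them. No list was tested as a set, and most members of most lists were not called. The leave-one-out range given beside a count is the lowest and highest count in that direction when each of the 6 libraries was left out in turn.

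**Figure D2:**
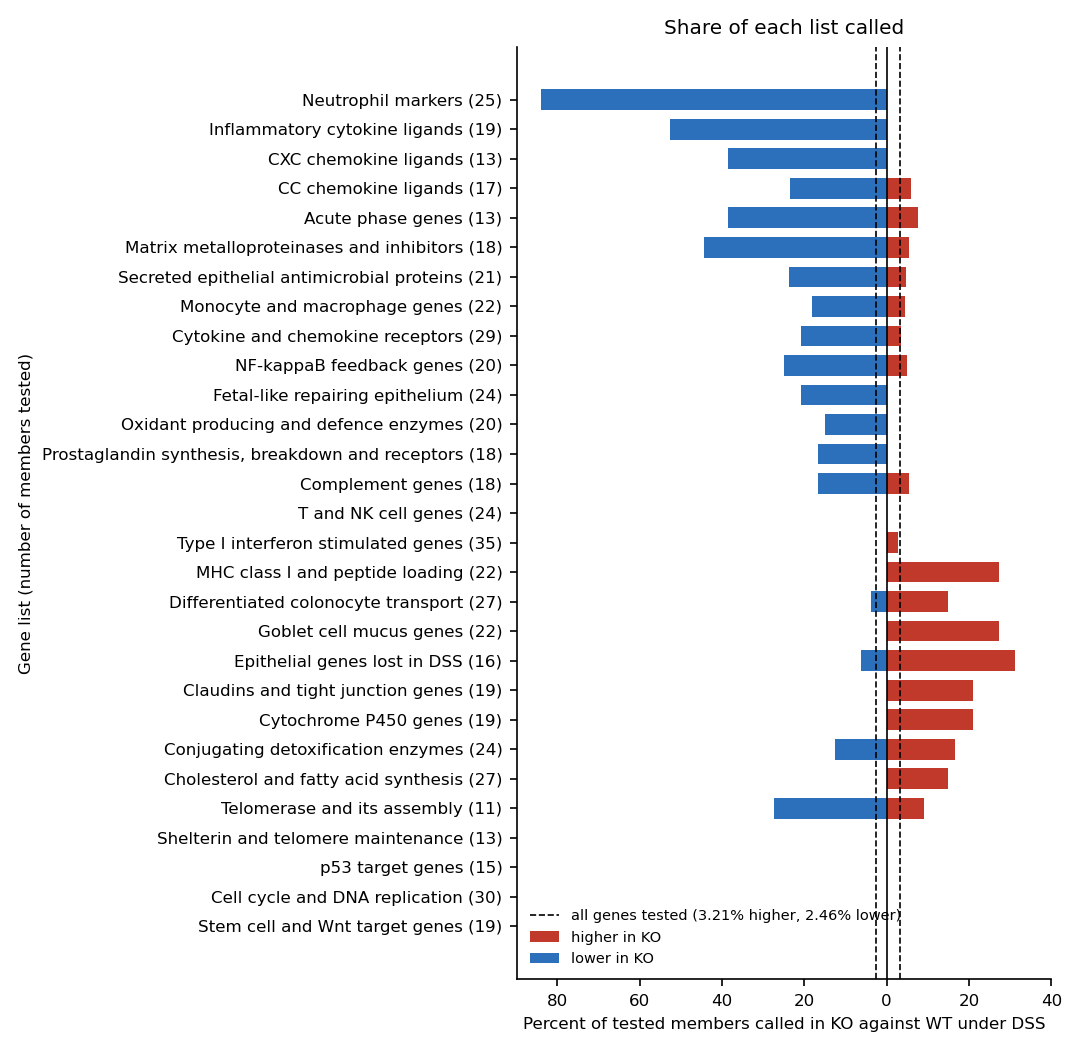
Percent of the tested members of each list called higher (red, to the right) or lower (blue, to the left) in KO under DSS, with the number tested in brackets. Dashed lines mark the share over all genes tested, 3.21% higher and 2.46% lower. Neutrophil markers reach the furthest left. The colonocyte, goblet, lost epithelial, tight junction and MHC class I lists lie mostly to the right. The repairing epithelium and epithelial antimicrobial lists lie mostly to the left by called members, while their summed levels were not lower in KO.

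Neutrophil genes fell furthest. Of 25 neutrophil markers tested, 21 fell and 0 rose, with a median log2 fold change of -2.94. *S100a8*, 1 subunit of the antimicrobial protein calprotectin, had 3.33, 4.16 and 1.93 CPM in the KO libraries and 64.5, 86.3 and 57.4 CPM in the WT libraries. The groups were far apart, and *S100a8* fell by a log2 fold change of -4.45 ± 0.33, adjusted *P* 2.8e-05 by edgeR. Its partner subunit *S100a9* had 4.42, 7.16 and 4.39 CPM in KO and 73.4, 92.1 and 58.1 CPM in WT, a log2 fold change of -3.80 ± 0.28. *Retnlg*, a resistin-like protein of neutrophil granules, went from 18.5, 22.8 and 25.7 CPM in WT to 0.543, 0.614 and 0.669 CPM in KO, a log2 fold change of -5.18 ± 0.36 and the lowest of the called genes above the level floor of 2 log2 CPM. Untreated colon of both genotypes held little of these transcripts: *S100a8* stood at 0.205 and 0 CPM in untreated WT and at 0.323 and 0.0714 CPM in untreated KO. DSS KO libraries therefore lay between untreated colon and DSS WT colon for *S100a8*.

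Granule enzymes and receptors of neutrophils fell as well. *Mmp8*, neutrophil collagenase, had 0.698, 0.751 and 0.149 CPM in KO and 13.4, 23.5 and 19.4 in WT, and 0 counts in all 4 untreated WT and KO libraries. *Mmp9*, a gelatinase of neutrophil granules, had 1.47, 2.25 and 1.64 CPM against 16.3, 18.4 and 11.9, with a log2 fold change of -3.11 ± 0.39. Each KO library lay below each WT library for both enzymes. Among receptors, the formyl peptide receptor genes *Fpr1* and *Fpr2* fell with log2 fold changes of -4.03 and -2.94, the C-type lectins *Clec4d* and *Clec4e* with -3.54 and -2.96, and the decoy interleukin-1 receptor *Il1r2* with -2.72. *Csf3r*, the receptor for the growth factor of the neutrophil lineage, had 6.75, 7.71 and 8.62 CPM in KO and 24.8, 19.2 and 21.4 in WT, a log2 fold change of -1.50 ± 0.22. Rare transcripts went the same way, with intervals for counting error only. The stefin gene *Stfa2* had 1 count over the KO libraries and 46 over WT, a scaled ratio of 43.2 (95% exact interval 7.37 to 1741). *Mrgpra2b* had 1 against 87, a ratio of 81.6 (14.3 to 3260). *Prok2*, prokineticin 2, outside the lists and singled out after its values were seen, had 0 KO counts against 99 in WT, so it was at least 31.0-fold lower against a floor of 3 counts over the group.

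The 4 neutrophil markers that were not called were *Ly6g*, *Cxcr2*, *Camp* and *Ltf*. *Ly6g*, often used as the surface marker of mouse neutrophils, had 108, 68 and 78.5 CPM in KO and 108, 127 and 110 in WT under DSS, and 63.1 and 84.4 CPM in untreated WT, so in these libraries it did not follow the other markers. Its groups touched at 108 CPM and its adjusted *P* was 0.58. *Cxcr2*, the receptor for the CXC ligands described next, had 29.5, 21.6 and 22 CPM in KO and 31.8, 27 and 30.6 in WT. From 17 to 21 of the 25 markers stayed lower when each of the 6 libraries was left out in turn, and 21 were lower without VAA DSS replicate 3. *S100a8*, *S100a9*, *Retnlg*, *Mmp8*, *Mmp9*, *Clec4d* and *Il1r2* were called in each of those 6 fits.

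**Figure D3:**
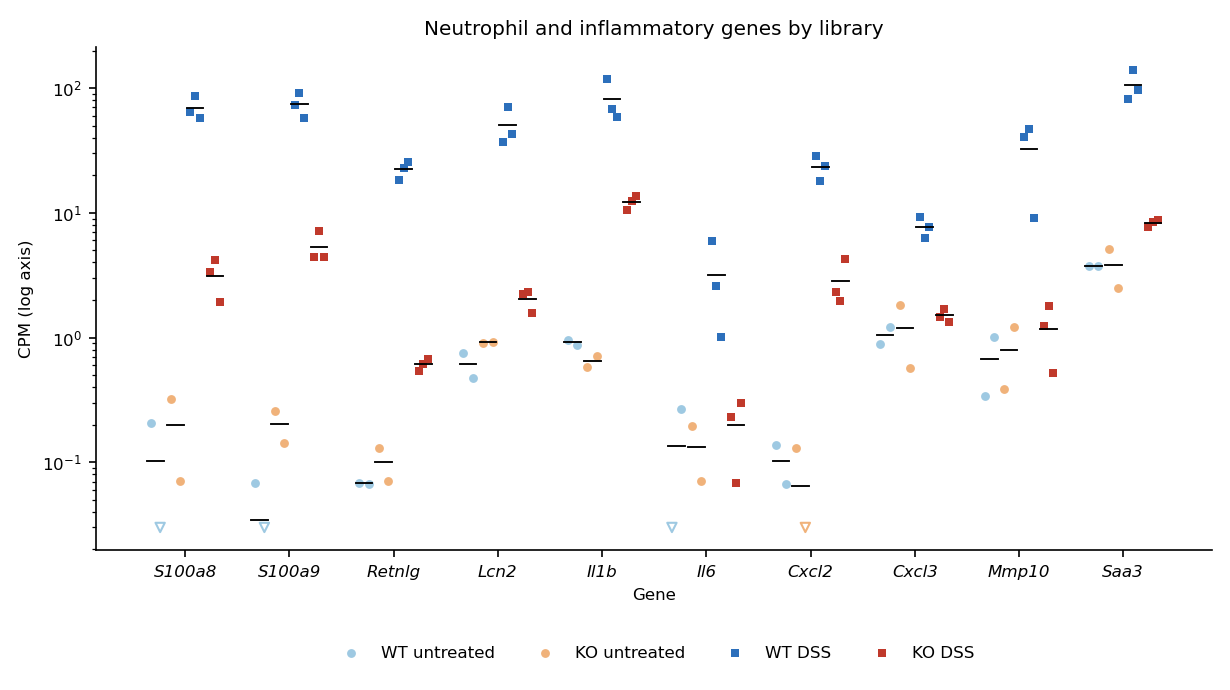
CPM on a log axis for 10 neutrophil and inflammatory genes, 1 point per library, with a black line at the group mean; open triangles mark libraries with 0 counts, drawn at the foot of the axis. For each gene the 3 KO DSS libraries (red) lie below the 3 WT DSS libraries (blue).

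Chemokines that attract neutrophils were lower in KO as well. These CXC ligands act on the receptor encoded by *Cxcr2*. Of 13 CXC ligand genes tested, 5 fell and 0 rose, with a median of -1.28 (leave-one-out range 3 to 5 lower). *Cxcl2* had 2.33, 1.98 and 4.24 CPM in KO and 28.5, 18.1 and 23.8 CPM in WT, a log2 fold change of -3.04 ± 0.32 with an adjusted *P* of 0.00051. *Cxcl3* had 1.47, 1.71 and 1.34 CPM against 9.19, 6.29 and 7.73, and *Cxcl5* had 25.4, 25.4 and 17.8 against 172, 112 and 64. Their log2 fold changes were -2.35 ± 0.34 and -2.34 ± 0.35, and no KO library reached a WT library. *Cxcl1* had 2.48, 2.12 and 1.41 CPM in KO and 12.7, 8.97 and 6.02 in WT, a log2 fold change of -2.20 ± 0.49, and its call was lost in 5 of the 6 fits with a library left out. *Cxcl13*, which attracts B cells, also fell (-2.49 ± 0.63).

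The ligand genes *Cxcl1*, *Cxcl2* and *Cxcl3* lie in 1 cluster on chromosome 5 and fell together, and *Il6* on the same chromosome had a change of similar or greater size, so their promoters are shown. Each window is RefSeq sequence on GRCm38.p6, plus strand, from 250 bases before to 50 after the gene start: chr5:90890995-90891294 for *Cxcl1*, chr5:90903649-90903948 for *Cxcl2*, chr5:90785851-90786150 for *Cxcl3* and chr5:30012864-30013163 for *Il6*. Capitals mark matches to a kB motif spelled GGGANNTNCC or to a C/EBP motif spelled TTNNGCAAT, each searched on both strands.
Cxcl1: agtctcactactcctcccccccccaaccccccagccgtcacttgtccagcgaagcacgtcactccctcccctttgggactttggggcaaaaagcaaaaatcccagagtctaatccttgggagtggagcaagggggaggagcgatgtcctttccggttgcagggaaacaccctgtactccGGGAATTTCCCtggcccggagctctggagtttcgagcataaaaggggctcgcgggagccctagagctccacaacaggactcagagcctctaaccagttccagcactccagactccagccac
Cxcl2: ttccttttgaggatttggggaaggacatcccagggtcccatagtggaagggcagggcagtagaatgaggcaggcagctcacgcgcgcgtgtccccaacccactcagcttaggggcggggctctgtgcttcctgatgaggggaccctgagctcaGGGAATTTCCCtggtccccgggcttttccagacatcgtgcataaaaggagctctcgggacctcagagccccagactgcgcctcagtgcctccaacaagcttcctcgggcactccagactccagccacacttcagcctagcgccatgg
Cxcl3: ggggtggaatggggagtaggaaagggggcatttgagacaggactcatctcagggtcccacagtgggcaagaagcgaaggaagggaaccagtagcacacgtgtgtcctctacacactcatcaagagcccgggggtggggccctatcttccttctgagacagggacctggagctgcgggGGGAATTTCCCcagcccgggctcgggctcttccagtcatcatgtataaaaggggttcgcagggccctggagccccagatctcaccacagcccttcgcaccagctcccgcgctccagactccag
Il6: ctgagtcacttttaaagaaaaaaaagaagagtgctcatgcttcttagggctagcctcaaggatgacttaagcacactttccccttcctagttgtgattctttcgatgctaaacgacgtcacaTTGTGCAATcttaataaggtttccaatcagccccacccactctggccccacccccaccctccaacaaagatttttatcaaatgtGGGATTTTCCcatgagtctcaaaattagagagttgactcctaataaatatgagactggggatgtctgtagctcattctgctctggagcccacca
The 3 chemokine windows hold the run GGGAATTTCC, which begins 71 bases before the start of *Cxcl1*, 97 before *Cxcl2* and 73 before *Cxcl3*. A match on the other strand, shifted by 1 base, overlaps each of them. The *Il6* window holds GGGATTTTCC from 44 bases and TTGTGCAAT from 128 bases before the start. The kB motif was found for 4 of 10 CXC ligand genes with a window, *Cxcl10* being the other, for 3 of 16 cytokine, 2 of 23 neutrophil and 0 of 11 acute phase genes, and for 644 of 12092 tested genes with a window (5.33%). The C/EBP motif was found for 0 of the 10 CXC ligand, 2 of the 16 cytokine, 2 of the 23 neutrophil and 2 of the 11 acute phase genes, and for 233 of all tested genes with a window (1.93%). These matches describe letters and were not related to the measured changes.

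Cytokine ligands held many calls. Of 19 inflammatory cytokine ligand genes tested, 10 fell and 0 rose, with a median of -2.03. *Il1b*, the secreted interleukin-1, had 10.6, 12.5 and 13.6 CPM in KO and 119, 68.6 and 59 CPM in WT, a log2 fold change of -2.74 ± 0.35, adjusted *P* 0.0021. *Il6*, the inducer of the acute phase, had 0.233, 0.0682 and 0.297 CPM in KO and 5.98, 2.61 and 1 in WT, a log2 fold change of -3.96 ± 0.80, which was -3.13 (adjusted *P* 0.064) without WT replicate 1. WT values for *Il6* were spread over a wide range, and the KO libraries were at or near the untreated values of 0 and 0.269 in WT and 0.194 and 0.0714 in KO. *Osm*, oncostatin M of the same family, had 0.698, 0.546 and 0.669 against 4.6, 4.45 and 5.37, a log2 fold change of -2.90 ± 0.38. *Il33*, an alarmin of epithelium and stroma, fell to 2.02, 2.8 and 2.23 CPM from 14.4, 32.7 and 7.14 (-2.93 ± 0.55, and -2.18 with an adjusted *P* of 0.059 without WT replicate 2). *Il1a*, *Il11*, the activin subunit *Inhba* and *Il1f9*, which encodes interleukin-36 gamma, fell with log2 fold changes of -2.78, -1.77, -2.03 and -1.13.

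Rarer cytokines were read from few counts. *Csf3*, the granulocyte growth factor that acts on *Csf3r*, had 3 counts over the KO libraries and 59 over WT, a scaled ratio of 18.4 (95% exact interval 6.01 to 92.0), and was called. *Il10*, a cytokine that restrains inflammation, had 3 counts against 25, a ratio of 7.82 (2.38 to 40.5), and was called as well. Both intervals cover counting error only. The call of *Csf3* was lost in 5 of the 6 fits with a library left out. That of *Il10* was lost in all 6 and without the expression filter. *Tnf* had 7.83, 5.94 and 6.99 CPM in KO and 21.4, 7.66 and 9.79 in WT, with an adjusted *P* of 0.39. *Il1rn*, the interleukin-1 receptor antagonist, had 88.3, 92.1 and 106 CPM in KO and 112, 87.3 and 99.5 in WT. The agonists *Il1a* and *Il1b* were thus several-fold lower while the groups overlapped for the antagonist *Il1rn*. Across the 6 fits with a library left out, 2 to 8 of the 19 cytokine genes were lower, and *Il1b* and *Osm* were called in each of them.

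CC chemokines were mixed. Of 17 tested, 4 fell and 1 rose, with a median of -0.49. *Ccl2*, which attracts monocytes, had 0.776, 1.02 and 1.19 CPM in KO and 16.5, 6.98 and 2.6 in WT, a log2 fold change of -3.11 ± 0.71, and *Ccl3* had 0.388, 0.546 and 0.52 against 2.55, 2.91 and 1.83. *Ccl4* and the eosinophil attractant *Ccl11* were the others that fell (-2.86 ± 0.75 and -1.66 ± 0.36). The WT values of *Ccl2* ran over a wide range, its log2 fold change was -2.24 without WT replicate 1, and the calls of *Ccl2*, *Ccl3*, *Ccl4* and *Ccl11* were each lost in at least 5 of the 6 fits with a library left out. *Ccl6* went the other way, with 86.4, 97.9 and 124 CPM in KO, 36.7, 29.2 and 45.1 in WT under DSS, 87.6 and 76 in untreated WT and 117 and 127 in untreated KO. It rose by a log2 fold change of 1.47 ± 0.26, and the KO DSS libraries lay in the untreated range.

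**Figure D4:**
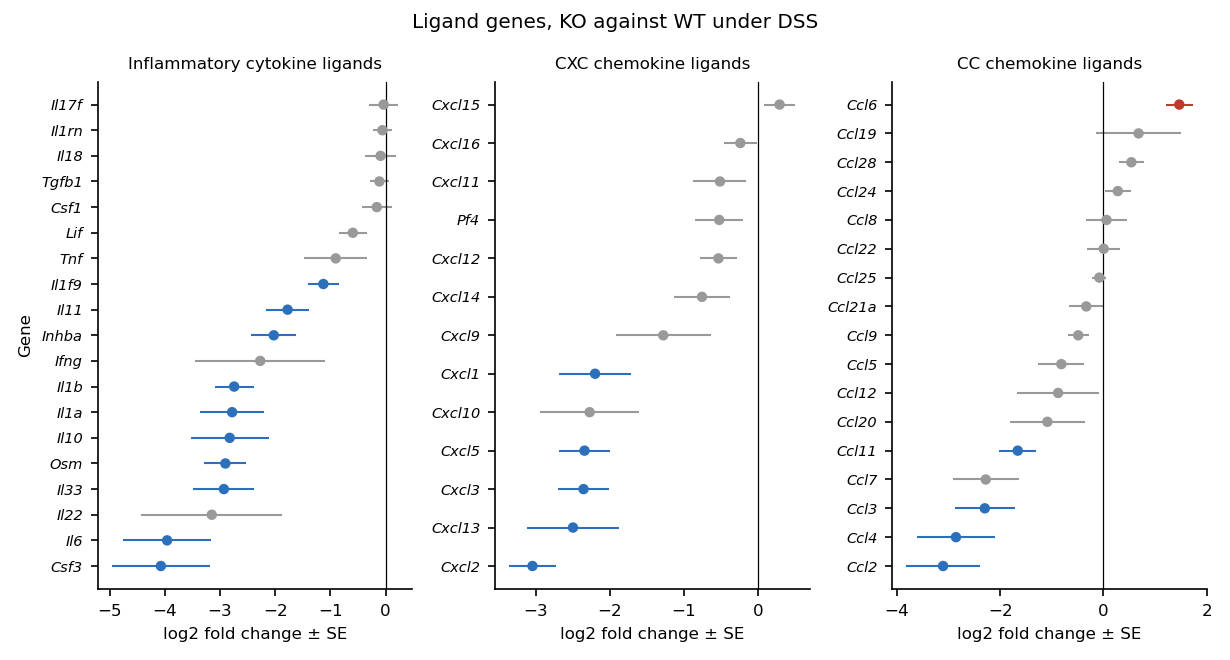
Log2 fold change of KO against WT under DSS, with bars of 1 SE, for every tested gene of the cytokine, CXC chemokine and CC chemokine ligand lists. Blue points were called lower, the red point (*Ccl6*) was called higher and grey points were not called.

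Among 29 cytokine and chemokine receptor genes, 6 fell and 1 rose, with a median of -0.23 (leave-one-out range 2 to 7 lower). *Il1r1*, the signalling receptor for both interleukin-1 forms, had 11.7, 12.4 and 15.1 CPM in KO and 35.3, 41.5 and 31.7 in WT, a log2 fold change of -1.47 ± 0.26. *Il1rl1*, the receptor for interleukin-33, had 9.07, 10.7 and 8.62 against 40.5, 39.5 and 28.4, a log2 fold change of -1.93 ± 0.31. Ligand and receptor genes of the interleukin-1 and interleukin-33 pairs therefore fell together. *Ccr1*, *Csf2rb* and *Tnfrsf1b* also fell (-1.31 ± 0.24, -1.49 ± 0.32 and -0.90 ± 0.22). The 1 that rose was *Il17rc*, a subunit of the interleukin-17 receptor, with 99.3, 103 and 111 CPM in KO and 55.3, 64.1 and 63.7 in WT (0.78 ± 0.13, adjusted *P* 0.0087).

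Of 20 genes induced by NF-kappaB and its feedback regulators, 5 fell and 1 rose, with a median of -0.26 (leave-one-out range 2 to 6 lower). *Socs3*, the feedback inhibitor of interleukin-6 family signalling, had 18.3, 23.1 and 35.3 CPM in KO and 129, 87.5 and 77.9 in WT, a log2 fold change of -1.94 ± 0.34. The adhesion molecules *Icam1* and *Vcam1*, which hold leukocytes to vessel walls, fell with -1.49 ± 0.29 and -0.92 ± 0.16, and the NF-kappaB subunit gene *Rel* with -0.74 ± 0.17. *Tnip1*, an inhibitor of the pathway, rose (0.58 ± 0.13). The other 14 genes of the list were not called.

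Acute phase proteins are secreted in response to interleukin-6 and interleukin-1. Of 13 such genes tested, 5 fell and 1 rose, with a median of -1.15 (leave-one-out range 3 to 5 lower). *Saa3*, a serum amyloid A made in inflamed tissue, had 7.76, 8.46 and 8.7 CPM in KO and 82.3, 140 and 96.5 CPM in WT, a log2 fold change of -3.68 ± 0.34 with an adjusted *P* of 0.00024. *Lcn2*, lipocalin 2, which binds bacterial siderophores, had 2.25, 2.32 and 1.56 CPM in KO and 37.1, 70.6 and 42.7 CPM in WT, a log2 fold change of -4.61 ± 0.43. Untreated WT libraries held 3.76 and 3.77 CPM of *Saa3* and 0.752 and 0.471 of *Lcn2*, so the KO DSS libraries were within a few CPM of untreated colon. *Hp*, haptoglobin, *Lrg1* and *Cp*, ceruloplasmin, fell with -2.42 ± 0.48, -1.75 ± 0.36 and -1.47 ± 0.23. *Pigr*, the epithelial carrier of secreted antibody, rose from 1686, 1481 and 1977 CPM in WT to 3264, 2791 and 3885 CPM in KO (0.95 ± 0.21).

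Secreted antimicrobial proteins and related enzymes also split by member. Of 21 tested, 5 fell and 1 rose, with a median of -0.26 (leave-one-out range 2 to 5 lower), and *Lcn2* is among them. The summed level of the 21 was above WT, at 11260, 7985 and 9107 CPM in KO and 7701, 6456 and 6747 in WT. *Reg3b*, a lectin that kills bacteria, had 2.25, 0.819 and 1.19 CPM in KO and 11.5, 27.9 and 14.5 in WT, with 0 counts in untreated libraries of both genotypes (-3.66 ± 0.62). *Chil3*, a chitinase-like protein of myeloid cells, had 1.09, 0.955 and 2.23 CPM against 27.1, 66.1 and 31.7 (-4.86 ± 0.53), and *Pla2g2a* had 8.38, 13.7 and 24.1 against 36, 54.6 and 47.9. *Nos2*, inducible nitric oxide synthase, had 129, 131 and 196 CPM in KO and 578, 426 and 293 CPM in WT under DSS and 1.71 and 2.36 in untreated WT. It fell by a log2 fold change of -1.50 ± 0.32, yet KO levels stayed far above untreated colon, unlike those of *Saa3* or *Lcn2*. *Itln1*, intelectin 1, rose from 1 count over the WT libraries to 32 over KO, a ratio of 34.1 (95% exact interval 5.70 to 1389, counting error only).

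Matrix metalloproteinases and their inhibitors gave 8 lower and 1 higher gene of 18 tested, with a median of -0.84. Apart from the neutrophil enzymes above, *Mmp10* and *Mmp3*, the stromelysins, had 1.24, 1.77 and 0.52 and 5.43, 1.57 and 1.34 CPM in KO against 40.9, 47.2 and 9.03 and 68.7, 58 and 8.02 CPM in WT. *Mmp13*, an interstitial collagenase, had 2.17, 5.87 and 3.35 CPM against 75.7, 75.3 and 15.6. All 3 enzymes were several-fold lower in WT replicate 3 than in the other WT libraries, though still above every KO library, and their log2 fold changes were -4.76 ± 0.74, -4.02 ± 0.82 and -3.85 ± 0.63. The tissue inhibitors *Timp1* and *Timp3* fell too, *Timp3* with 45.8, 44.1 and 52 CPM in KO and 154, 118 and 84 in WT (-1.33 ± 0.19). *Timp3* in untreated WT stood at 148 and 151 CPM, above the DSS KO libraries. *Mmp15*, a membrane-anchored member, rose (0.70 ± 0.18). Counts of lower members ran from 5 to 7 over the fits with a library left out.

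Stromal lists held fewer calls. Of 19 fibroblast markers, 3 fell and 0 rose, with a median of -0.20 (leave-one-out range 1 to 3 lower). *Grem1*, a BMP antagonist of crypt-base fibroblasts, had 41, 32.3 and 45 CPM in KO and 199, 171 and 102 CPM in WT (-2.00 ± 0.25, adjusted *P* 0.0018), and *Pdpn*, podoplanin, had 4.96, 5.59 and 7.06 against 15.8, 17.3 and 11.2. Of 26 collagen and matrix genes, 1 fell, *Dcn*, decorin (-1.12 ± 0.25), with a median of -0.39. Without VAA DSS replicate 3, 7 of the 26 were lower. For 20 endothelial markers 0 were called by edgeR, with a median of -0.64, 1 was called by DESeq2 and 1 by limma (4 at unadjusted *P* under 0.05). Smooth muscle genes gave 1 higher of 18 and a median of 0.62, led by *Casq2* (1.65 ± 0.30). *Actg2*, enteric smooth muscle actin, had 174, 47.5 and 183 CPM in KO and 50.9, 38.5 and 50.2 in WT, with KO replicate 2 inside the WT range. Of 20 enteric neuron and glia genes 0 were called by edgeR, 4 by DESeq2 and 1 by limma (8 at unadjusted *P* under 0.05), and without VAA DSS replicate 3 8 were lower. For those 20 genes the summed level ran from 54.9 to 78.2 CPM in KO and from 118.6 to 143.0 in WT.

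Repair of the crypt after DSS passes through an epithelial state that resembles fetal gut. Of 24 genes that mark it, 5 fell and 0 rose, with a median of -0.29 (leave-one-out range 2 to 4 lower). Their summed level was not lower in KO, at 4147, 3205 and 3359 CPM against 3534, 3153 and 2788 in WT. Yet 17 of the 24 log2 fold changes were below 0 and 7 above. KO libraries lay wholly below WT libraries for 11 members and wholly above for 3, against 19.5% and 16.4% of all genes tested. The sum thus did not follow most members. *Ereg*, epiregulin, an EGF receptor ligand, had 10.7, 8.53 and 10.6 CPM in KO and 76.7, 67.2 and 43.3 CPM in WT, a log2 fold change of -2.65 ± 0.29 with an adjusted *P* of 0.0007. *Ereg* in untreated WT was at 12.1 and 13.9 CPM, slightly above the KO DSS libraries. *Plaur*, the urokinase receptor, had 9.77, 11 and 11.2 against 33.2, 25.6 and 26.3 (-1.41 ± 0.19), and *Cd44*, the hyaluronan receptor, had 63.6, 66.4 and 64.9 against 116, 134 and 102 (-0.85 ± 0.17). *Msln*, mesothelin, which is also on the list of mesothelial markers, fell (-2.41 ± 0.65), but its call was lost in all 6 fits with a library left out. The other of the 5 was *Il33*, given above among the cytokines and not particular to epithelium.

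Of 13 EGF receptor ligands and receptors, 3 fell and 1 rose. Besides *Ereg*, *Nrg1*, neuregulin 1, had 11.2, 15.5 and 23.9 CPM in KO and 56.1, 57.4 and 55.6 in WT (-1.74 ± 0.31), and *Epgn* fell from low levels (-2.10 ± 0.57). *Erbb2*, the co-receptor without a ligand of its own, rose from 147, 114 and 168 CPM to 254, 245 and 223 (0.75 ± 0.14). Prostaglandin genes gave 3 lower and 0 higher of 18 (leave-one-out range 0 to 3 lower). *Ptgs2*, the inducible cyclooxygenase, had 11.1, 8.26 and 13.1 CPM in KO and 63.2, 30.4 and 21.2 in WT (-1.82 ± 0.36). The downstream synthase *Ptges* and the receptor *Ptger2* fell alongside (-1.07 ± 0.21 and -1.63 ± 0.35), so an enzyme, the next enzyme and a receptor of the pathway were lower. *Slco2a1*, which carries prostaglandins into cells, had 109, 90.3 and 117 CPM in KO and 69.9, 57.5 and 67.6 in WT, with an adjusted *P* of 0.054.

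Oxidant enzymes gave 3 lower and 0 higher of 20 (leave-one-out range 1 to 3 lower). *Hmox1*, heme oxygenase 1, had 4.34, 5.19 and 5.8 CPM in KO and 18.1, 23.8 and 15.1 in WT (-1.89 ± 0.26), and *Gpx2*, the gut glutathione peroxidase, had 356, 473 and 439 against 723, 1078 and 712 (-0.99 ± 0.27). Of 21 inflammasome and gasdermin genes 2 fell and 2 rose (leave-one-out range 0 to 2 higher), with a median of 0.37. DESeq2 called 6 higher and 2 lower. Of the 21 log2 fold changes 16 were above 0 and 5 below. KO libraries lay wholly above WT libraries for 12 and wholly below for 3, against 16.4% and 19.5% of all genes tested. *Il1b*, given above among the cytokines, was 1 of the 2 that fell. *Nlrp3*, a sensor whose complex activates the protease that matures interleukin-1 beta, fell from 14.1, 11 and 8.32 CPM to 2.02, 2.32 and 3.42 (-2.10 ± 0.41), whereas the flagellin sensors *Naip5* and *Naip6* rose (0.50 ± 0.11 and 0.67 ± 0.16). *Naip5* and *Naip6* are near-identical copies, so the split of reads between them is uncertain.

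Fewer monocyte and macrophage genes were called. Of 22 tested, 4 fell and 1 rose, with a median of -0.51 (leave-one-out range 2 to 4 lower). *Msr1*, a scavenger receptor, had 5.97, 5.8 and 7.88 CPM in KO and 16.3, 22.7 and 13.9 in WT (-1.43 ± 0.25). *Acod1*, which makes itaconate in activated macrophages, had 2.33, 4.16 and 2.9 CPM against 50.7, 22.2 and 33.7 (-3.50 ± 0.62). The general macrophage markers *Adgre1*, *Csf1r* and *Cd68* had adjusted *P* of 0.31, 0.34 and 0.57, with log2 fold changes of -0.53, -0.51 and -0.28 and overlapping groups. *Mertk*, a receptor for engulfing dead cells, rose from 26.7, 27.1 and 30.6 CPM to 44.2, 39.6 and 42.4 (0.58 ± 0.13). Each of 4 Fc gamma receptor genes, a family grouped after its values were seen, fell (leave-one-out range 0 to 4, with 0 of them called without WT replicate 2): *Fcgr3* (-1.63 ± 0.28), *Fcgr4* (-1.55 ± 0.32), *Fcgr1* (-1.19 ± 0.31) and the inhibitory *Fcgr2b* (-0.84 ± 0.15). They bind the constant part of IgG on myeloid and B cells.

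Lymphocyte lists held few calls. For 24 T and NK cell genes 0 were called by edgeR, DESeq2 or limma, with 1 at an unadjusted *P* under 0.05, with a median of 0.37. Their summed level ran from 77.5 to 82.4 CPM in KO and from 57.4 to 78.3 in WT, and *Cd3e* had 4.11, 3.89 and 3.27 CPM in KO and 2.41, 2.76 and 1.83 in WT. For 16 B cell genes 0 were called by edgeR, DESeq2 or limma (0 at unadjusted *P* under 0.05), and the sums ran from 45.8 to 355.8 CPM in KO and from 142.5 to 221.6 in WT. Among 14 plasma cell genes *Fkbp11*, a chaperone of secretory cells, fell (-1.18 ± 0.30), and its call was lost in all 6 fits with a library left out. Summed T and NK cell genes in KO were thus at the top of the WT range or above it.

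Interferon genes gave few calls. Of 35 type I interferon stimulated genes 1 rose, *Irf7*, the transcription factor of the late response (1.42 ± 0.35), against 7 without VAA DSS replicate 3 and 6 by DESeq2, and the median was 0.84. Of the 35, 15 had an unadjusted edgeR *P* under 0.05, and 32 log2 fold changes were above 0 and 3 below. KO libraries lay wholly above WT libraries for 12 and wholly below for 0, against 16.4% and 19.5% of all genes tested. *Irf7* had 140, 64.8 and 67.5 CPM in KO and 47.3, 27.4 and 27.2 in WT, with KO replicate 1 the highest library. *Ddx60*, an RNA helicase among the genes with the highest changes, had 173, 82.4 and 77.5 CPM in KO and 39.5, 25.3 and 26.1 in WT, again highest in KO replicate 1 (1.87 ± 0.50). Of 24 interferon-induced GTPase genes 1 fell, *Gbp5*, a guanylate-binding protein induced by interferon gamma (-1.31 ± 0.28), with a median of -0.15. *Ifng* itself had 0.0776, 0.341 and 0.446 CPM in KO and 3.21, 0.92 and 0.236 in WT, with WT replicate 3 inside the KO range and an adjusted *P* of 0.3.

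Some MHC class I genes rose. Of 22 tested, 6 rose and 0 fell, with a median of 0.58 (leave-one-out range 2 to 6 higher). *H2-K1*, a classical class I heavy chain, had 1140, 899 and 1041 CPM in KO and 592, 634 and 549 CPM in WT, a log2 fold change of 0.79 ± 0.12 with an adjusted *P* of 0.005. *Tapbp*, tapasin, which loads peptide, had 287, 256 and 277 CPM against 193, 143 and 125 (0.83 ± 0.15), and *H2-T23* and *H2-Q2* rose with 0.87 ± 0.16 and 1.59 ± 0.24. *H2-K1* and *H2-Q2* were called in each fit with a library left out, and 13 of 22 were higher without VAA DSS replicate 3. Reads of class I genes can be split between near-identical copies, so single members are uncertain. For 11 MHC class II genes 0 were called by edgeR, DESeq2 or limma (3 at unadjusted *P* under 0.05), and the median was 0.59. Complement genes gave 3 lower and 1 higher of 18 (leave-one-out range 1 to 3 lower): the receptor *C5ar1* fell with -1.70 ± 0.28, *C1s1* with -0.86 ± 0.20 and the inhibitor *Serping1* with -0.97 ± 0.25, while *C2* rose with 0.82 ± 0.20. Without VAA DSS replicate 3 7 were lower.

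Some genes of mature epithelium were higher in KO. Of 27 transport genes of differentiated colonocytes 4 rose and 1 fell, with a median of 0.47. *Scnn1a*, a subunit of the epithelial sodium channel, had 189, 152 and 155 CPM in KO and 79.1, 56.6 and 95.9 CPM in WT, a log2 fold change of 1.10 ± 0.20. *Slc5a8*, a butyrate transporter, had 470, 310 and 398 against 180, 141 and 234, and *Slc9a2*, a sodium-proton exchanger, had 185, 118 and 133 against 52.4, 55 and 97.4. The groups did not overlap for any of the 3. *Slc26a2*, a sulfate transporter, rose by less (0.79 ± 0.19). *Slc9a3*, the other main sodium-proton exchanger, fell, with 8.53, 9.35 and 14 CPM in KO, 23, 59.3 and 92.4 in WT, 79 and 15.4 in untreated KO and 6.22 and 11.8 in untreated WT. Counts of higher colonocyte genes ran from 0 to 6 over the fits with a library left out, and 8 were higher without VAA DSS replicate 3.

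Goblet cells secrete the mucus that DSS thins. Of 22 goblet cell genes 6 rose and 0 fell, with a median of 0.56 (leave-one-out range 2 to 8 higher). *Fcgbp*, a mucus-stabilising protein, had 5196, 4740 and 5925 CPM in KO and 1977, 1569 and 2534 CPM in WT, a log2 fold change of 1.38 ± 0.19 with an adjusted *P* of 0.0026. *Muc2*, the gel-forming mucin, had 4813, 5185 and 6009 CPM against 2753, 2810 and 3892 (0.76 ± 0.15), and *Clca1*, a mucus-processing protease, had 976, 727 and 1087 against 239, 233 and 360 (1.74 ± 0.32). *Tff3*, *Zg16* and *Capn9* rose with 1.16 ± 0.17, 1.07 ± 0.25 and 0.91 ± 0.25. Untreated KO libraries were also above untreated WT libraries for these genes, without a call: *Clca1* stood at 3628 and 3362 CPM in untreated KO and 1606 and 2027 in untreated WT (0.94 ± 0.39), and *Fcgbp* at 8035 and 8119 against 5618 and 5894 (0.49 ± 0.23). The difference between the DSS and untreated comparisons was 0.80 ± 0.49 for *Clca1* and 0.89 ± 0.29 for *Fcgbp*, with adjusted *P* of 0.63 and 0.34. Summed goblet genes ran from 19700 to 23520 CPM in KO and from 12120 to 15270 in WT under DSS, and from 27610 to 28620 against 20340 to 21320 untreated.

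**Figure D5:**
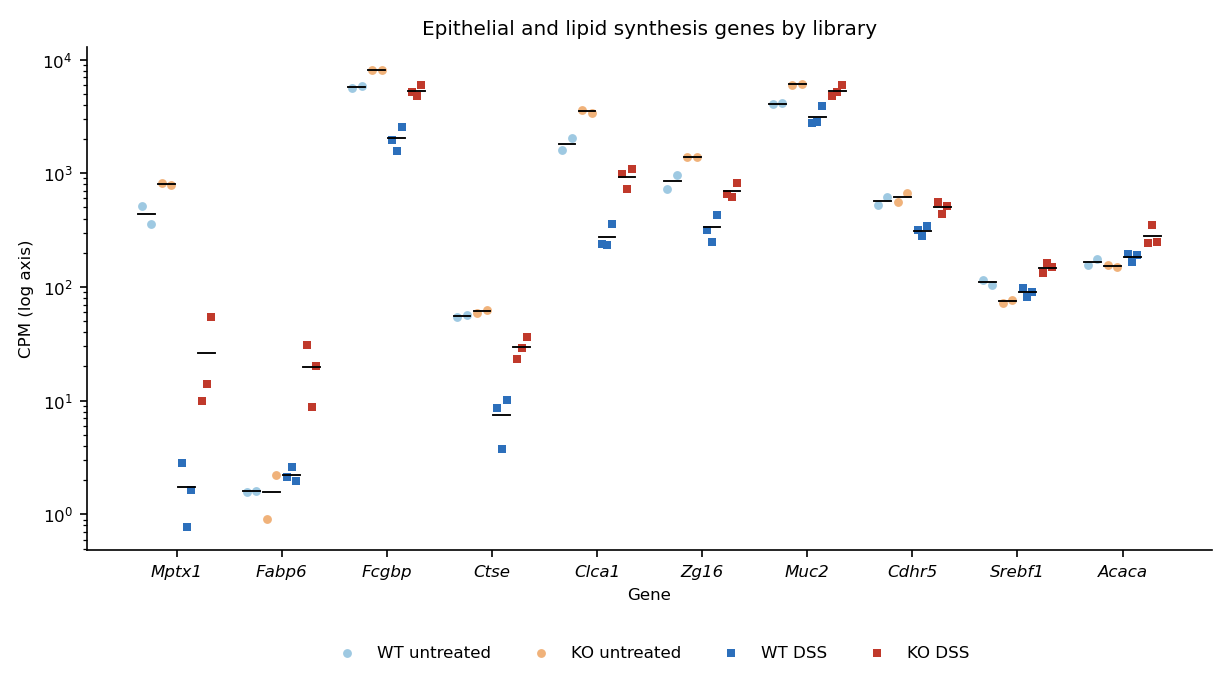
CPM on a log axis for 10 epithelial and lipid synthesis genes, 1 point per library, with a black line at the group mean. The KO DSS libraries (red) lie above the WT DSS libraries (blue) for each gene, and for *Fcgbp*, *Clca1*, *Zg16* and *Muc2* the untreated KO libraries also lie above untreated WT.

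Several genes with the highest changes were epithelial products that are scarce after DSS. Of 16 epithelial genes on a list of those lost under DSS, 5 rose and 1 fell, with a median of 0.69 (leave-one-out range 0 to 4 higher). That list was drawn up with results of these libraries known and its direction is no independent evidence. The summed level of the 16 overlapped between the groups, at 1421, 1269 and 1594 CPM in KO and 1324, 1246 and 1437 in WT. *Mptx1*, a mucosal pentraxin and the highest of the called genes above the level floor, had 9.93, 14.1 and 54.4 CPM in KO, 2.84, 0.766 and 1.65 in WT, and 517 and 359 in untreated WT. It rose by a log2 fold change of 3.89 ± 0.68, which was 2.77 without KO replicate 3, the highest of them, and KO libraries remained far below untreated colon. *Sycn*, syncollin, had 53.9, 39 and 72.5 CPM against 20.9, 6.75 and 11.8 (2.07 ± 0.46).

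Other genes among the 15 highest were enzymes and transport proteins. *Fabp6*, the ileal bile acid binding protein, had 30.9, 8.87 and 20.1 CPM in KO and 2.12, 2.61 and 1.95 in WT, against 1.57 and 1.62 in untreated WT (3.16 ± 0.45), so KO libraries exceeded the untreated level. *Cbr2*, a carbonyl reductase, had 46.2, 35.8 and 49.4 CPM against 12.8, 8.58 and 12.8 and 13.9 and 18.4 in untreated WT (1.94 ± 0.37), and *Ceacam10* had 26.9, 19.4 and 32.1 against 7.8, 5.06 and 8.67 (1.86 ± 0.35). For these 3 genes the KO DSS libraries lay above both DSS WT and untreated WT libraries. For *Eno3*, an enolase, the KO libraries had 178, 82.4 and 117 CPM, the WT libraries 26, 15.2 and 23.6 and untreated WT 128 and 155 (2.54 ± 0.44). *Dio1*, a deiodinase of thyroid hormone, had 31.1, 15.8 and 21 CPM against 6.35, 4.6 and 5.61 (2.03 ± 0.38). *Ctse*, cathepsin E, had 23.3, 29.2 and 36.4 CPM against 8.53, 3.76 and 10.2 (1.97 ± 0.41). *Casp14*, *Tppp3*, *Pdzd7* and *Cyp2d12* were also in the group, with 2.13 ± 0.55, 1.90 ± 0.43, 1.99 ± 0.35 and 2.00 ± 0.51.

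A minority of junction genes rose, by small amounts. Of 19 claudins and tight junction genes 4 rose and 0 fell, with a median of 0.32 (leave-one-out range 0 to 3 higher), and 9 rose without VAA DSS replicate 3. *Epcam*, an epithelial adhesion molecule, had 1371, 1193 and 1267 CPM in KO and 870, 873 and 913 CPM in WT (0.53 ± 0.12). *Cdh1*, E-cadherin, had 1442, 1350 and 1363 against 1043, 897 and 999 (0.50 ± 0.12), and *Cldn3* and *Cgn* rose with 0.43 ± 0.10 and 0.41 ± 0.10. On the unscaled log2 values 1 of the 19 was called. *Epcam* and *Cdh1* mark epithelial cells in general, and their values are given because they moved with the epithelial results above. The call of *Cdh1* was lost in all 6 fits with a library left out and on the unscaled values, and that of *Epcam* in 5 of the 6. Summed neutrophil markers ran from 153.2 to 187.4 CPM in KO and from 485.8 to 609.2 in WT, and summed fibroblast markers from 222.6 to 262.8 against 324.2 to 460.2. Their part in the epithelial differences was not tested.

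Metabolic lists held a few calls each, mostly higher. Of 27 cholesterol and fatty acid synthesis genes 4 rose and 0 fell, with a median of 0.60. The count was 1 to 3 with a library left out, 3 on the unscaled values and 20 without VAA DSS replicate 3. All 27 log2 fold changes were above 0. KO libraries lay wholly above WT libraries for 23 of the 27, against 16.4% of all genes tested. Summed levels were 8497, 10330 and 9193 CPM in KO and 5652, 5234 and 5959 in WT. *Srebf1*, a transcription factor that drives lipid synthesis, had 132, 162 and 149 CPM in KO and 98, 80.8 and 90.5 CPM in WT, a log2 fold change of 0.72 ± 0.12 with an adjusted *P* of 0.0064. In untreated colon *Srebf1* went the other way without a call, with 72.4 and 77.1 CPM in KO and 115 and 104 in WT (-0.55 ± 0.14). The difference between the comparisons was 1.27 ± 0.18, the smallest *P* of all genes for that contrast, with an adjusted *P* of 0.13. *Scd2*, a fatty acid desaturase, had 2543, 2795 and 2859 CPM against 1360, 1344 and 1379 (1.01 ± 0.23). *Acly*, which makes cytosolic acetyl-CoA, and *Dhcr7*, the last enzyme of cholesterol synthesis, rose with 0.78 ± 0.21 and 0.89 ± 0.21.

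Of 19 cytochrome P450 genes 4 rose and 0 fell, with a median of 0.46 (leave-one-out range 0 to 6 higher). *Cyp2s1*, an epithelial member, had 153, 87.3 and 83.8 CPM in KO and 34.1, 26 and 48.6 in WT (1.58 ± 0.32). *Cyp2d10*, *Cyp2d26* and *Cyp2d34* rose with 1.21 ± 0.26, 1.28 ± 0.23 and 0.63 ± 0.17. The *Cyp2d10* to *Cyp2d34* genes are near copies of each other, and their reads may be shared. Conjugating enzymes gave 4 higher and 3 lower of 24 (leave-one-out range 0 to 3 higher): the sulfotransferase *Sult1a1* and glutathione transferase *Gstt1* rose (1.15 ± 0.27 and 1.02 ± 0.21), while *Gsta1* and *Gsta4* fell (-0.97 ± 0.21 and -0.82 ± 0.20). Fat oxidation gave 2 higher and 1 lower of 27 (leave-one-out range 0 to 2 higher), with *Ppargc1a*, a coactivator of mitochondrial genes, at 90.6, 84 and 84.9 CPM in KO and 38.7, 23.4 and 53.6 in WT (1.16 ± 0.31).

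Besides *Tert*, 3 telomerase and assembly genes and 0 shelterin genes were called. Of 11 telomerase and assembly genes 3 fell, *Tert* included, and 1 rose, with a median of -0.54. Of these 11, again with *Tert*, 10 were below 0. KO libraries lay wholly below WT libraries for 8, against 19.5% of all genes tested. *Nhp2*, a protein of the telomerase and other box H/ACA particles, had 15, 22.6 and 21.9 CPM in KO and 36.7, 47.8 and 32.7 in WT (-0.98 ± 0.26), and *Ruvbl1*, an assembly ATPase, had 11.2, 13.9 and 14 against 24.9, 24 and 18.1 (-0.77 ± 0.20). *Tep1*, a telomerase-associated protein, rose (0.44 ± 0.11). These 3 calls were each lost in 5 of the 6 fits with a library left out, and without VAA DSS replicate 3 8 of the 11 were lower. *Dkc1*, dyskerin, had 27.7, 30 and 29.6 CPM in KO and 43, 41.3 and 38.5 in WT, with groups apart and an adjusted *P* of 0.31. For 13 shelterin and telomere maintenance genes 0 were called by edgeR, DESeq2 or limma (3 at unadjusted *P* under 0.05), and the median was -0.04. Short or uncapped telomeres activate p53 in other settings. Of 15 p53 target genes 0 were called by edgeR, 3 by DESeq2 and 1 by limma (6 at unadjusted *P* under 0.05), with a median of -0.23. *Cdkn1a*, the cell cycle inhibitor p21, had 210, 204 and 230 CPM in KO and 157, 104 and 130 in WT, with groups apart and an adjusted *P* of 0.055 (0.72 ± 0.20).

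Cytosolic DNA sensing genes gave 2 higher and 1 lower of 20, with a median of 0.11 that became -0.02 on the unscaled log2 values. *Ifi205* fell from 24.5, 12.6 and 7.49 CPM in WT to 2.56, 3.82 and 4.61 in KO (-2.01 ± 0.40), and *Trim56* rose (0.53 ± 0.14). *Tmem173*, which encodes STING, had 19.7, 20.6 and 21 CPM in KO and 50.4, 43.2 and 22.4 in WT, with an adjusted *P* of 0.052, and *Mb21d1*, which encodes cGAS, had 4.96, 6.35 and 6.17 against 10.4, 9.96 and 7.02. WT replicate 3 lay nearest to KO for both.

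Growth programmes held few calls, though cell cycle, ribosomal protein and proteasome genes leaned lower in KO. For 30 cell cycle and replication genes 0 were called by edgeR, 1 by DESeq2 and 0 by limma (6 at unadjusted *P* under 0.05), with a median of -0.51, and without VAA DSS replicate 3 11 were lower. All 30 log2 fold changes were below 0. KO libraries lay wholly below WT libraries for 18 of the 30, against 19.5% of all genes tested. *Mki67*, the proliferation marker, had 490, 673 and 457 CPM in KO and 656, 804 and 698 in WT, and *Rrm2*, a subunit of ribonucleotide reductase, 26.1, 36.3 and 33.5 against 67.2, 80.3 and 57.6 (adjusted *P* 0.069). For 19 stem cell and Wnt target genes 0 were called by edgeR and limma and 1 by DESeq2, with a median of 0.13 (4 at unadjusted *P* under 0.05), and *Lgr5*, the crypt stem cell marker, had 7.21, 11.6 and 14.3 CPM against 9.63, 4.14 and 5.84. Ribosomal protein genes had 0 calls of 29 by edgeR and a median of -0.31, with 2 by DESeq2 and 5 by limma (13 at unadjusted *P* under 0.05). All 29 were below 0, and KO lay wholly below WT for 22 of them. Of 29 proteasome genes 1 fell, the regulator *Psme3* (-0.53 ± 0.14), with a median of -0.39, and 15 were lower without VAA DSS replicate 3. Here 27 of the 29 were below 0, and KO lay wholly below WT for 22. For 22 unfolded protein response genes 0 were called by edgeR, with 3 by DESeq2 and 3 by limma (11 at unadjusted *P* under 0.05). The median of those 22 was -0.46, with 21 below 0, and 9 were lower without VAA DSS replicate 3 and 0 to 5 with a compared library left out. Respiratory chain genes had 0 calls of 30 by edgeR, DESeq2 and limma (4 at unadjusted *P* under 0.05).

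Families grouped after their values were seen add detail on growth and stress. A group of 40 genes was chosen by the symbols Nop, Nol, Utp, Rrp, Rrs, Noc and Nob, which mostly name ribosome assembly proteins. Of the 40, 16 fell and 1 rose, with a median of -0.58. Membership rests on the symbol alone, so not every gene need act in ribosome assembly. *Nop56*, a core protein of box C/D particles, had 38.2, 40.4 and 49.4 CPM in KO and 77.7, 108 and 71.6 in WT (-1.01 ± 0.27), and *Nolc1* had 21.9, 27.1 and 29.9 against 55.7, 65.9 and 48.3 (-1.11 ± 0.25). From 0 to 14 of them fell over the 6 fits with a library left out. Of 14 Slc7 amino acid carriers 4 fell and 0 rose (leave-one-out range 1 to 4 lower), among them *Slc7a5* (-1.64 ± 0.36) and the cystine carrier *Slc7a11* (-1.44 ± 0.18). Of 14 heat shock 70 and 110 family genes 4 fell (leave-one-out range 0 to 6 lower). *Hspa1b* had 10.5, 6.41 and 14.4 CPM in KO and 58.3, 202 and 10.4 in WT, so WT replicate 3 lay inside the KO range and the other WT libraries lay above it. Without WT replicate 2 the log2 fold change of *Hspa1b* went from -3.11 to -1.71 (adjusted *P* 0.22). *Hspa1a* and *Hspa1b* are near-identical copies and their reads cannot be assigned with certainty.

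Further families had several called members. In the Serpina3 cluster of secreted protease inhibitors 3 of 6 genes fell (leave-one-out range 1 to 3 lower), with *Serpina3n* at 19.3, 18.1 and 29.7 CPM in KO and 116, 168 and 115 in WT (-2.57 ± 0.50) and *Serpina3f* at 1.24, 1.02 and 2.16 against 13.1, 14.4 and 9.85 (-3.07 ± 0.32). Copies in that cluster are alike in sequence. *Cers3*, a ceramide synthase of barrier epithelia and 1 of the 15 lowest genes, had 1.55, 1.77 and 0.892 CPM against 10.8, 15.2 and 7.26 (-2.96 ± 0.46). Of 5 Mettl7 family genes 4 rose (leave-one-out range 1 to 4 higher), and *Mettl7a3* had 4.42, 5.53 and 4.53 CPM in KO, 0.875, 0.766 and 1.12 in WT and 12.4 and 13.2 in untreated WT (2.37 ± 0.28). Butyrophilin-like genes, which shape gut intraepithelial T cells, gave 3 higher of 8 (leave-one-out range 0 to 1 higher), *Btnl6* among them (0.97 ± 0.24). Of 8 posterior Hox genes, which keep the positional identity of the distal gut, 4 rose and 0 fell (leave-one-out range 0 to 3 higher): *Hoxb13* had 228, 219 and 208 CPM against 133, 116 and 157 (0.69 ± 0.13), *Hoxd12* 13.6, 11.9 and 8.03 against 4.67, 1.99 and 3.13 (1.78 ± 0.39), and *Hoxa13* and *Hoxd10* rose with 0.49 ± 0.12 and 1.12 ± 0.29, each called in 1 of the 6 fits with a library left out. The KO values of *Hoxb13* lay near its untreated WT values of 229 and 226 CPM.

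Genes beside *Tert* were read because an engineered allele carries flanking DNA of its strain of origin. Of 46 tested genes within 5 Mb of *Tert* on chromosome 13, 4 were called (8.7%, against 5.67% of all genes). *Tppp*, a tubulin-binding protein, rose from 15, 8.05 and 11.8 CPM to 88.8, 25 and 43.8 (2.17 ± 0.39, and 1.56 without KO replicate 1) and *Slc12a7*, a potassium-chloride cotransporter, rose as well (0.64 ± 0.13). *Slc9a3*, described above, and *Nsun2*, an RNA methyltransferase, fell (-2.45 ± 0.65 and -0.68 ± 0.18). Untreated, the log2 fold changes were -0.20 ± 0.44 for *Tppp*, 0.17 ± 0.15 for *Slc12a7*, 2.39 ± 0.80 for *Slc9a3* and -0.06 ± 0.22 for *Nsun2*. None of the 4 had a change of like size and sign untreated. The strain of either group was not given, so flanking DNA and the absence of *Tert* cannot be told apart for these genes.

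Markers of other tissues show what else the pieces of colon held. Of 9 adipocyte genes 0 were called by edgeR, DESeq2 or limma (0 at unadjusted *P* under 0.05), and their sums were 97.0, 435.6 and 58.1 CPM in KO and 520.8, 81.9 and 75.9 in WT, so 1 library of each group held more fat-related RNA. Of 12 squamous epithelium genes 0 were called by edgeR and limma and 1 by DESeq2 (2 at unadjusted *P* under 0.05). *Krt6a*, a squamous keratin, had 0, 0.205 and 0.0743 CPM in KO and 1.46, 1.07 and 0.059 in WT. Of 7 erythroid genes 0 were called by edgeR, DESeq2 or limma (4 at unadjusted *P* under 0.05), with sums from 6.10 to 14.1 CPM in KO and from 7.14 to 49.8 in WT. Of 7 skeletal muscle genes *Myh2* rose, with 24 counts in KO and 0 in WT, at least 8.53-fold higher against a floor of 3 counts over the group. The call of *Myh2* was lost in all 6 fits with a library left out. Among 4 pancreatic genes 0 were called by edgeR and limma and 1 by DESeq2 (1 at unadjusted *P* under 0.05), and among 7 mast cell and eosinophil genes 0 by any of these tools (1 at unadjusted *P* under 0.05). Of 16 tuft cell genes 2 fell and 1 rose (leave-one-out range 1 to 2 lower), and *Alox5ap*, which fell (-1.91 ± 0.27), is also expressed in myeloid cells. For 16 enteroendocrine genes 0 were called by edgeR and limma and 1 by DESeq2 (5 at unadjusted *P* under 0.05).

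Single libraries weighed on many of these calls. Of the 167 called genes named here, 46 were called in each of the 6 fits with 1 of the compared libraries left out. On the lower side these were, among neutrophil and myeloid genes, *Tert* aside, *S100a8*, *S100a9*, *Retnlg*, *Mmp8*, *Mmp9*, *Clec4d*, *Clec4e*, *Csf3r*, *Fpr1*, *Fpr2*, *Il1r2*, *Mrgpra2b*, *Stfa2*, *Chil3*, *C5ar1* and *Alox5ap*. Among secreted signals, receptors and acute phase genes they were *Cxcl2*, *Cxcl3*, *Cxcl5*, *Il1b*, *Osm*, *Il1rl1*, *Socs3*, *Saa3*, *Lcn2* and *Cp*. Repair, stromal and stress genes added *Ereg*, *Nrg1*, *Plaur*, *Mmp10*, *Mmp13*, *Timp3*, *Grem1*, *Hmox1*, *Serpina3f*, *Slc7a11* and *Cers3*. On the higher side they were *Fcgbp*, *Tff3*, *Fabp6*, *Srebf1*, *H2-K1*, *H2-Q2*, *Il17rc* and *Mettl7a3*. The remaining 121 lost the call in at least 1 such fit, 119 of them without WT replicate 2 and 97 without KO replicate 1. Calls lost in all 6 were those of *Btnl6*, *Ccl4*, *Cdh1*, *Cyp2d34*, *Ddx60*, *Epgn*, *Fkbp11*, *Il10*, *Il1f9*, *Msln*, *Myh2*, *Nsun2*, *Scd2* and *Trim56*. The fold change moved by a factor of more than 1.5 for 20 of the 167, and examples follow as log2 fold changes. Without KO replicate 1 *Cyp2d12* went to 1.38, *Tppp3* to 1.31, *Cxcl13* to -3.27 and *Mmp3* to -4.93. Without KO replicate 2 *Hp* went to -3.15, without KO replicate 3 *Ccl4* went to -3.52 and *Fpr1* to -4.66, and without WT replicate 1 *Il1a* went to -2.18.

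For the difference between the DSS and untreated comparisons, the smallest *P* values belonged to *Srebf1*, *Saa3*, *Mettl7a3*, *Lcn2* and *Ereg*. The differences were -3.71 ± 0.57 for *Saa3*, -5.19 ± 0.90 for *Lcn2*, -2.58 ± 0.45 for *Ereg* and 2.60 ± 0.41 for *Mettl7a3* on the log2 scale. Their adjusted *P* was 0.13 for *Saa3*, 0.2 for *Lcn2*, 0.2 for *Ereg* and 0.13 for *Mettl7a3*, so each missed the threshold in edgeR. Untreated, after *Tert*, the smallest *P* values were those of *Insl5*, a peptide of colonic endocrine cells, and of antibody variable genes. *Insl5* had 47.6 and 40.2 CPM in untreated KO and 22.5 and 19.9 in untreated WT (1.05 ± 0.20, adjusted *P* 0.51), and 27, 20.2 and 25.9 in KO and 16.1, 21 and 19.8 in WT under DSS.

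The libraries of the enzymatically inactive allele under DSS are given for the leading genes as values alone. *S100a8* had 128, 72.2 and 91.6 CPM in VAA DSS libraries, *Cxcl2* 34.4, 27.9 and 28.1 CPM, *Saa3* 146, 64.6 and 167 CPM and *Fcgbp* 2131, 2519 and 1637 CPM. None of these libraries lay within the KO range for the 4 genes, and replicate 3 stood apart from the other 2 in many genes.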

How the data were processed

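RNA of mouse colon was sequenced as total RNA libraries with paired reads of 76 bases, per the labels. The count table deposited by the authors holds estimated counts by gene symbol, all whole numbers, and names kallisto 0.46 and mm10 per the submitters' processing notes. A second table deposited by the authors holds log2 CPM of 17531 genes, without a scaling factor, and served 1 alternative. No source used here names the annotation.

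The main test was edgeR 4.0.16 in R 4.3.3, with its expression filter over 6 groups, trimmed mean scaling, quasi-likelihood fit of 15 libraries with 9 residual degrees of freedom, and Benjamini-Hochberg adjustment over 17477 genes within each contrast. All libraries were kept because they share 1 estimate of spread. DESeq2 1.42.0 and limma 3.58.1 served as alternatives, with other scalings, no filter, a replicate block and libraries left out. The script was tested on simulated data.

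The comparison, its members and 57 lists of 1107 genes (1103 matched, 1034 tested) were chosen with earlier results of these data known. Genes named are *Tert*, the 15 highest and 15 lowest called genes with mean log2 CPM of at least 2 and groups that do not overlap (predicted, antibody and T cell receptor genes left out), up to 4 members per list with a call or 2 of another by smallest *P*, and the 5 smallest *P* of the untreated and difference contrasts; others were chosen after their values were seen. A few genes that the rule would name are not reported here. Positions are from GENCODE on mm10 and promoters from RefSeq on GRCm38.p6, with 12092 tested genes matched. A gene whose lower group held 3 counts or fewer is given as a ratio of scaled counts with an exact 95% interval, or as a bound. The interval is taken on counts pooled over a group and leaves out the spread among libraries. Depth was 10.56 to 17.54 M counts per library.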

Additional observations from a re-analysis of the deposited data

How the results depend on the processing

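The sign of the change was stable for the genes named, and the count of calls was not. Most of these genes were named after being called and the fits share libraries, so their agreement is no independent support. On the deposited log2 values the calls moved to 375 higher and 856 lower. The medians of the DNA sensing, B cell, plasma cell, enteroendocrine and respiratory chain lists changed sign there. Over 16 alternatives and 190 named genes (*Ddx3y*, read for sex alone, is not counted), 1 gene changed sign: *Il1rn*, not called, ran from -0.14 to 0.03 with each library left out. For KO against WT under DSS the count of 991 moved to 1778 with the DESeq2 test, 2766 when only the KO and WT DSS libraries were fitted, 2704 without VAA DSS replicate 3 and 531 without the 2 male untreated libraries, and it ran from 121 to 1027 with each of the 6 libraries left out. It stayed within 1.5 times with DESeq2 size factors (956), upper quartile scaling (1094), no expression filter (984), limma on the deposited log2 values (1231) and without genes over 1% of a library (1035). For the untreated comparison 0 calls became 9 with the DESeq2 test and 1 with limma. For the difference between the comparisons 0 became 138 with the DESeq2 test, 9 with limma, 31 when only the 4 WT and KO groups were fitted, 5 without the filter and 18 without VAA DSS replicate 3, and it ran from 0 to 2 with each library left out. Fewer libraries or other filters change the spread that is shared; otherwise the cause was not tested. With replicate number as a block 1074 genes were called, of which 878 were among the 991, and 12 of the 167 called genes named lost the call. Correlations of residuals between equal numbers ran from -0.16 to 0.31, with 7 of 15 libraries closest to their own number, so the numbers were not treated as pairs. How far depth limited the calls was not tested; counts of replicate pairs differed by a chi-square per degree of freedom of 10.9 to 20.9.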
